A study of Homo sapiens with 23 samples.

Results

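The start sites of 10 genes that mark lung cell lineages were examined in H23 (NCI-H23), a cell line from a human non-small cell lung cancer, grown in culture. All libraries come from this line, so the values describe 1 line. The genes were NKX2-1, FOXA1 and FOXA2, factors of the lung and foregut epithelium; SFTPB, SFTPC and SFTPA1, which encode surfactant proteins; NAPSA, SCGB1A1, TP63 and SOX2. They are 10 of the 20052 protein-coding genes of the RefSeq table. The peaks examined at each gene were those that overlapped the 4001 bp from 2 kb before to 2 kb after 1 given start site, in hg19. There were 105 such peaks among the 2889028 peaks of 22 deposited lists. Chromatin immunoprecipitation with sequencing (ChIP-seq) had been carried out for BRD2, a BET protein that binds acetylated lysine, and for 10 histone marks, with 2 libraries per target. An input library completed the 23 samples and was not analysed here. The treatment protocol in the labels names 500 nM JQ1, a BET bromodomain inhibitor, or its solvent DMSO for 24 h, but no label assigns either to a library. An effect of JQ1 was therefore not tested.

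NKX2-1 is the master regulator of lung epithelial identity and, with FOXA1 and FOXA2, binds and activates the surfactant genes of alveolar type II cells. SOX2 and TP63 belong to the airway and basal cell lineages and are often amplified or active in squamous lung cancer, while NKX2-1 and NAPSA are used to recognise lung adenocarcinoma. Among the marks, H3K4me3 is found at starts of genes that are active or poised, acetylation of H3K27 and of the H4 tail at active starts and enhancers, H3K4me1 around enhancers and flanking starts, H3K36me3 over transcribed gene bodies, H3K27me3 in regions held silent by Polycomb, and H3K9me3 in heterochromatin. A start with both H3K4me3 and H3K27me3 is called bivalent. RNA was not analysed here, so a state below is a state of marks and not a measurement of transcription.

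A target was counted as called at a start site when both of its lists held a peak within 2 kb, with at least 1 bp of overlap. A site with H3K4me3 and H3K27ac but no H3K27me3 was termed active, a site with H3K4me3 and H3K27me3 bivalent, and a site with H3K27me3 but no H3K4me3, or with H3K9me3 and neither of those, silenced. By this rule 3 genes were active (NKX2-1, FOXA1 and SOX2), 1 was bivalent (FOXA2), none was silenced, and 6 had no deciding mark (SFTPB, SFTPC, SFTPA1, SCGB1A1, NAPSA and TP63). Among 773151 windows of the same length tiled along the genome, 2.81% were active, 0.380% bivalent, 22.9% silenced and 73.9% without a deciding mark. These windows are not matched to gene starts and include unassembled stretches, so they show only how often a window of this length meets peaks. All 4 genes with a state encode transcription factors, and the genes without one were the 5 for secreted or surfactant-processing proteins and the factor TP63.

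The promoter sequences of the RefSeq table (GRCh38.p14) held 7 of the 10 genes in 10 entries, while FOXA2, SFTPC and SCGB1A1 were not among them. The 250 bases before the start are shown for the 3 active genes and for 2 genes without a deciding mark, so that their CG pairs, written in capitals, can be read beside the marks. The NKX2-1 entry shown holds 7 CG pairs and the upstream NAPSA entry 10, but no state was called for that NAPSA entry separately. NKX2-1 is shown by the entry that held motif matches, listed with the other matches. NAPSA is shown with both of its entries, since they lie 3663 bp apart and hold 10 and 3 CG pairs.
NKX2-1, downstream entry (chr14:36519557-36519806, minus strand): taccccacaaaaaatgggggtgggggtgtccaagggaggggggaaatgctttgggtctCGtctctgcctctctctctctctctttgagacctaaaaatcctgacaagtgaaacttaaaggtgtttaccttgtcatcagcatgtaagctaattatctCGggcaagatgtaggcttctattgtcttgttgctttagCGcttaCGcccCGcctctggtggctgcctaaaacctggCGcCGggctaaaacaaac
FOXA1 (chr14:37595250-37595499, minus strand): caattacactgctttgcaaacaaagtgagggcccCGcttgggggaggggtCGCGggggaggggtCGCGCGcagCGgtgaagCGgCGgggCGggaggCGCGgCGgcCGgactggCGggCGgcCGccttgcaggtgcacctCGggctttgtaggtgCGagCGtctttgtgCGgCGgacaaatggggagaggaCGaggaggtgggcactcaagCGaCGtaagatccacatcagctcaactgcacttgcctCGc
SOX2 (chr3:181711675-181711924, plus strand): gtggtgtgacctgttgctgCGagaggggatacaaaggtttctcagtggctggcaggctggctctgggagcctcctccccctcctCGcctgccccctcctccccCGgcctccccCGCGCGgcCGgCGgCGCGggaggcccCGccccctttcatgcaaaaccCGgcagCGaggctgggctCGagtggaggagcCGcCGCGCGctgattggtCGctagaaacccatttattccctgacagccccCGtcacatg
NAPSA, upstream entry (chr19:50369303-50369552, minus strand): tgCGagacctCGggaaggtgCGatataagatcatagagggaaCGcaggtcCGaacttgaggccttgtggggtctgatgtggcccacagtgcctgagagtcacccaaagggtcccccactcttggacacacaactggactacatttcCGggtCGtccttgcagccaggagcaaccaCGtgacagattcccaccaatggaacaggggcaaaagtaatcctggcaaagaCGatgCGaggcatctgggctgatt
NAPSA, downstream entry (chr19:50365640-50365889, minus strand): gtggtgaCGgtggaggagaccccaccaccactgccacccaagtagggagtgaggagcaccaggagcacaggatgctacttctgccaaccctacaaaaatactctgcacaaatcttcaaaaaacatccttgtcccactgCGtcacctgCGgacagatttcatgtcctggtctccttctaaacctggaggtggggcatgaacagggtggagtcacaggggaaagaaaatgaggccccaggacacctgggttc
SFTPA1 (chr10:79610689-79610938, plus strand): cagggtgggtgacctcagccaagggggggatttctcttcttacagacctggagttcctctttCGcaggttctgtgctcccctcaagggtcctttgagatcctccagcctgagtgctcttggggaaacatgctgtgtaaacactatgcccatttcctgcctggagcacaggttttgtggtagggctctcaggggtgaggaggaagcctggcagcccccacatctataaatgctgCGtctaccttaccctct

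CpG observed over expected is the number of CG pairs divided by the number that the C and G content would give. Over the 35116 promoters of the table its median was 0.558, with quartiles of 0.22 and 0.845. The ratio was 0.977 for FOXA1 with 26 CG pairs, 0.682 for SOX2 with 20, and 0.614 with 18 and 0.455 with 7 for the upstream and downstream entries of NKX2-1, which lie 676 bp apart. Among the genes without a deciding mark it was 0.0478 and 0.13 for the 2 SFTPB entries, 0.105 for SFTPA1, 0.502 for TP63, and 0.52 and 0.162 for the upstream and downstream entries of NAPSA. The 4 entries of active genes thus lay at or above 0.455, with the downstream NKX2-1 entry below the median of 0.558. The SFTPB and SFTPA1 entries lay at or below 0.13, and SFTPC had no entry. TP63 lay inside the range of the active genes. The upstream NAPSA entry did too, but states were called within 2 kb of 1 start site per gene. No state was called for this NAPSA entry separately. This is a description of 10 entries, of which 6 belong to genes represented more than once.

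**Figure D1:**
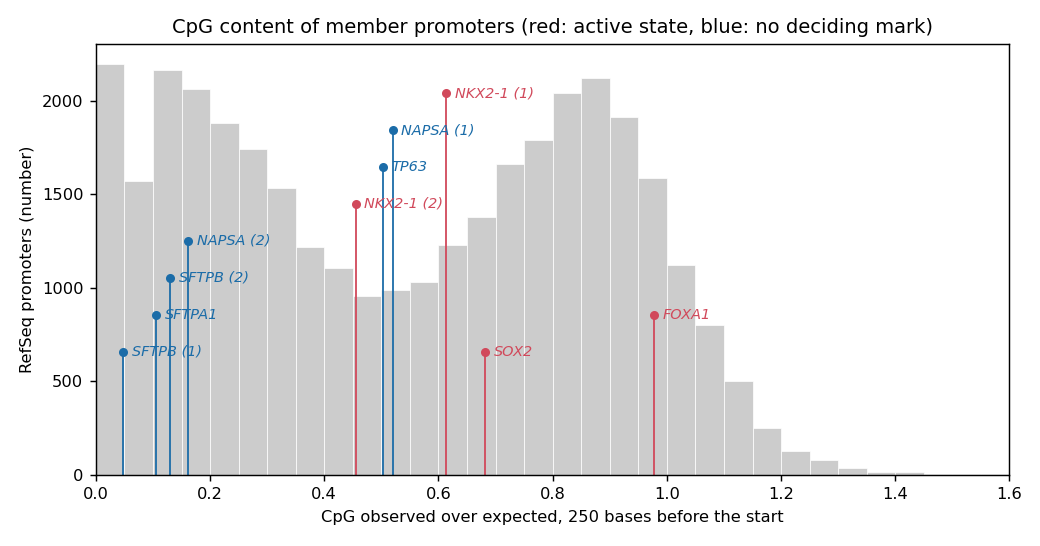
CpG observed over expected in the 250 bases before the start (horizontal axis, ratio) for the promoter entries of the member genes, over a grey histogram of all 35116 RefSeq promoters (vertical axis, number of promoters). Red lines are genes in the active state and blue lines genes without a deciding mark, and the height of a line only separates the labels. A state is that of the gene at its given start site, and none was called for the upstream NAPSA entry separately. The active genes start at 0.455 while both SFTPB entries and SFTPA1 stay at or below 0.13.

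Exact matches to 4 short motifs were searched on both strands: TATAAA (the TATA box), TGTTTAC (the forkhead core that FOXA factors bind), and CACTTGAG and CAAGTG (forms of the NKX2-1 site, where a match to the first always holds a match to the second on the other strand). Of all promoters 10.7% held TATAAA, 2.98% TGTTTAC, 0.564% CACTTGAG and 9.5% CAAGTG. The downstream NKX2-1 entry held TGTTTAC at 130 to 124 bases and CAAGTG at 147 to 142 bases before the start. SFTPA1 held TATAAA at 28 to 23 bases and TGTTTAC on the opposite strand at 116 to 110 bases. FOXA1 held CAAGTG on the opposite strand at 12 to 7 bases. TP63 held CAAGTG on the strand of the gene at 192 to 187 bases. No exact match was found in the entries of SFTPB, NAPSA and SOX2, which says only that these letters are not in these windows.

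**Figure D2:**
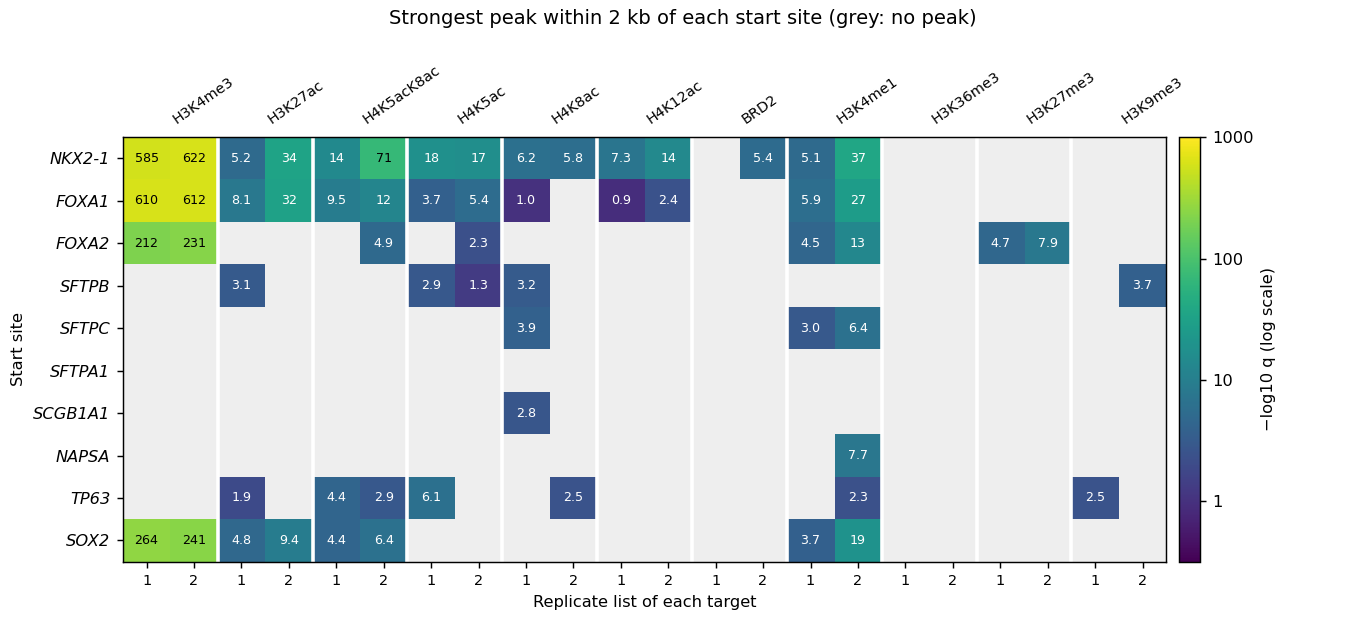
Strongest peak within 2 kb of each start site (rows) in each of the 2 lists of each target (columns), coloured by the deposited −log10 q on a log scale and printed in the cell; grey means no peak. H3K4me3 filled both lists for NKX2-1, FOXA1, FOXA2 and SOX2, while the row of SFTPA1 is empty and the only H3K27me3 cells are those of FOXA2.

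NKX2-1 (chr14, start site 36988903) was active and had the most marks of the 10 genes, with peaks in 15 of 22 lists and 7 targets called. Strength is given as the −log10 q of the peak caller for the strongest peak in the window, for the lists of replicates 1 and 2 in that order. It is compared only within a list. H3K4me3 was at 585 and 622, with fold enrichments over background of 77.5 and 87.9 and peak widths of 2836 and 2761 bp. H3K27ac was at 5.17 and 34.3. The peak in replicate 1 covered 9.75% of the window and that in replicate 2 covered 63%. Acetylation of the H4 tail was present in every form tested. H4K5acK8ac, the tail acetylated at both lysines, was at 14.4 and 70.8, H4K5ac at 17.9 and 17.1, H4K8ac at 6.16 and 5.79, and H4K12ac at 7.33 and 14.2. H3K4me1 was at 5.14 and 37.3. A BRD2 peak was found in replicate 2 (5.37) and not in replicate 1, whose list had a q above 0.05 for 64.7% of its peaks. No list held an H3K27me3, H3K9me3 or H3K36me3 peak in the window.

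FOXA1 (chr14, start site 38064325), a pioneer factor that opens chromatin for other factors, was also active, with peaks in 13 lists. H3K4me3 was at 610 and 612 with fold enrichments of 83.9 and 90.7, close to NKX2-1. H3K27ac was at 8.07 and 31.6, H4K5acK8ac at 9.47 and 12.3, and H4K5ac at 3.71 and 5.42. The other H4 marks were weak or absent in at least 1 list. H4K12ac was at 0.916 and 2.42, with summits 1500 bp before and 424 bp after the start and no base in common, and H4K8ac was at 0.996 in replicate 1 and absent from replicate 2. BRD2 had no peak in either list. H3K4me1 was at 5.88 and 26.8. H3K36me3, absent from the window, began 2.75 kb downstream in both lists.

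SOX2 (chr3, start site 181429712), a factor of airway progenitors, was the weakest of the active genes in these lists. H3K4me3 was at 264 and 241 with fold enrichments of 45.4 and 45.6, but the peaks were broad, 3963 and 4173 bp, wider than 93.5% and 95% of their lists, whose median widths were 1776 and 1743 bp. H3K27ac was at 4.76 and 9.40 and H4K5acK8ac at 4.40 and 6.40, both with their strongest summits upstream of the start, and H3K4me1 was at 3.73 and 19.1. No peak of H4K5ac, H4K8ac, H4K12ac or BRD2 lay in the window in any list. The nearest bases covered in both lists were 14.6 kb downstream for H4K5ac and 722 kb upstream for H4K8ac, H4K12ac and BRD2. SOX2 was thus acetylated at H3K27 and, by the antibody to the doubly acetylated tail, at H4, without a peak for H4K5ac or H4K8ac alone.

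The active genes were set beside 21173 windows of equal length centred on H3K4me3 summits with H3K4me3 in both lists, of which 76.2% were active, 11.5% bivalent and 12.3% neither. Their H3K4me3 was ordinary for NKX2-1 and FOXA1, higher than 40.9% to 44.7% of the 16129 active windows over both genes and both lists, and lower for SOX2, above 19.6% and 17.5%. H3K27ac was low at all 3 genes: the median of active windows was 161 and 209, and NKX2-1 exceeded 4.33% and 14.8% of them, FOXA1 7.56% and 14%, and SOX2 3.54% and 3.84%. H4K5acK8ac stood above 14.3% and 47.6% of active windows at NKX2-1, 8.97% and 6.18% at FOXA1, and 3.37% and 2.74% at SOX2. BRD2 was called in both lists in 66.1% of active windows and in neither list in 13.4%, and it was called at none of the 3 genes. In active windows H4K5acK8ac was called in 98.3%, H4K5ac in 96.5%, H3K4me1 in 93.4%, H4K12ac in 91.2% and H4K8ac in 70.6%, while H3K36me3 was called in 34.1% and H3K9me3 in 5.13%. NKX2-1 had all of these but H3K36me3 and H3K9me3, FOXA1 lacked H4K8ac as well, and SOX2 lacked H4K5ac, H4K8ac and H4K12ac. Active windows without these 3 H4 marks in all 6 lists, as at SOX2, made up 1.28%. The windows are centred on summits while the genes are centred on start sites, and the treatment of each library is not given, so the part of either in these differences was not tested.

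**Figure D3:**
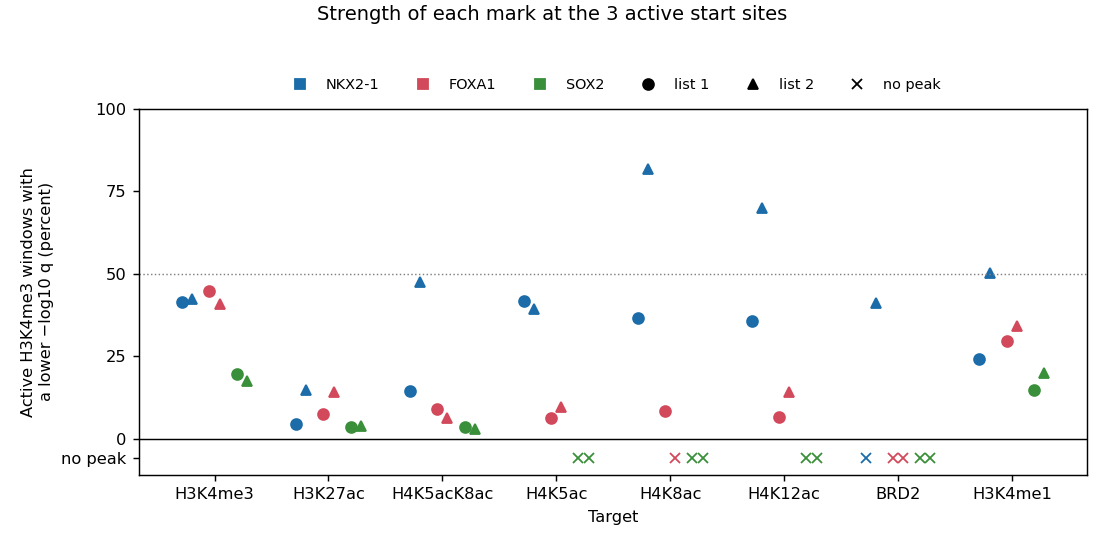
Share of the 16129 active H3K4me3 windows with a lower −log10 q (vertical axis, percent) for NKX2-1, FOXA1 and SOX2 and each target (horizontal axis); circles are list 1, triangles list 2, crosses below the line mean no peak in the window, and the dotted line marks 50%. All 6 H3K27ac points lie at or below 14.8%, and SOX2 has crosses for H4K5ac, H4K8ac, H4K12ac and BRD2.

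FOXA2 (chr20, start site 22565101), the partner of FOXA1 in lung and liver epithelium, was the bivalent gene. H3K4me3 was at 212 and 231 with fold enrichments of 38.5 and 44.1, and H3K27me3 at 4.72 and 7.92 with fold enrichments of 4.30 and 5.71. H3K27me3 covered 31.4% and 46.3% of the window. H3K4me3 covered the start site itself in both lists. The nearest bases with H3K27me3 in both lists began 969 bp away on the higher-coordinate side, with the strongest summits at 1403 and 1477 bp. H3K4me1 was at 4.46 and 13.1. H3K27ac had no peak in either list, as in 57.7% of the 2438 bivalent H3K4me3 windows, and H4K5acK8ac (4.92) and H4K5ac (2.27) had a peak in replicate 2 only. Among bivalent windows the H3K4me3 of FOXA2 lay above 44.6% and 48.6%, and its H3K27me3 above 54.2% and 77.3%. Both marks at FOXA2 were thus near the middle of bivalent windows, with H3K27me3 higher in replicate 2. H3K4me1, called at FOXA2, was called in 81.8% of bivalent windows. The marks not called at FOXA2 were called in 57.1% of them for H4K12ac, 50.2% for H4K5ac, 48.2% for H4K5acK8ac, 27.3% for H4K8ac, 25.6% for H3K27ac, 24.7% for H3K9me3, 11.3% for BRD2 and 2.05% for H3K36me3. Peaks of both marks in the same cell population do not show that both sat on the same molecules.

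The Polycomb mark extended well past the start of FOXA2. Within 100 kb on each side H3K27me3 covered 30.7 and 39.3 kb in 57 and 75 peaks, against genome medians of 1.68 and 2.06 kb, more than in 92.2% and 92.8% of windows of that length. No H3K27ac peak lay within 100 kb in either list, and the nearest base covered in both was 466 kb away. H3K9me3 covered 9.64 and 15 kb, against genome medians of 4.12 and 5.87 kb, more than in 77.9% and 81.3% of windows. H3K36me3 had no peak there.

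**Figure D4:**
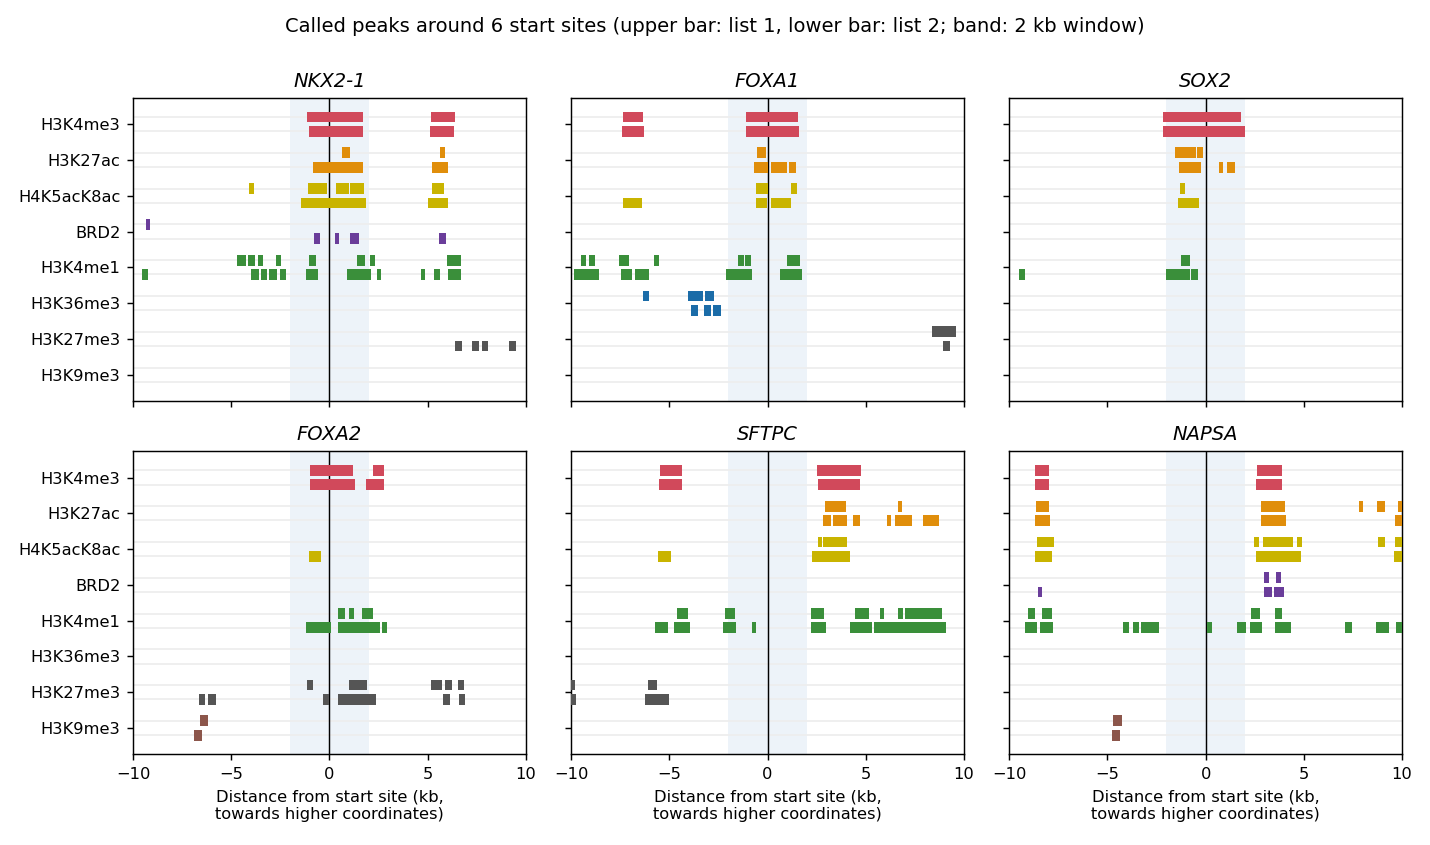
Peaks within 10 kb of 6 start sites (horizontal axis, kb towards higher coordinates) for 8 targets, with list 1 as the upper and list 2 as the lower bar of each target; the shaded band is the 4001-bp window. H3K4me3 spans the starts of NKX2-1, FOXA1, SOX2 and FOXA2, H3K27me3 joins it at FOXA2, and at SFTPC and NAPSA the nearest H3K4me3 bar begins 2589 and 2614 bp from the start.

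The surfactant genes carried few marks. SFTPB (chr2, start site 85895374) encodes the hydrophobic surfactant protein needed for breathing after birth. It had H4K5ac in both lists, at 2.89 and 1.30, and peaks in only 1 of the lists for H3K27ac (3.10, replicate 1), H4K8ac (2 peaks at 3.21 and 1.88, replicate 1) and H3K9me3 (3.70, replicate 2). The second H4K8ac peak spanned the start. With peaks limited to a q of at most 0.05, the H4K5ac call was lost and SFTPB had no target in both lists. SFTPC (chr8, start site 22019181), the most specific marker of alveolar type II cells, had H3K4me1 in both lists, at 3.05 and 6.38, with the shared bases beginning 1663 bp away on the lower-coordinate side, and an H4K8ac peak in replicate 1 (3.90). SFTPA1 (chr10, start site 81370695), which encodes a collectin of innate defence, had no peak in any of the 22 lists, as in 33.9% of genome windows. SFTPA2 is a near-identical neighbouring copy, and how reads that match both were treated is not given in the sources used here, so the empty window of SFTPA1 is uncertain. None of the 3 had H3K4me3, H4K12ac, BRD2 or H3K27me3 in either list, and no H3K36me3.

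NAPSA (chr19, start site 50869087) encodes napsin A, the protease that processes surfactant protein B. Its window held H3K4me1 in replicate 2 (7.74) and nothing else. SCGB1A1 (chr11, start site 62186507), which encodes the secretory protein of club cells, held H4K8ac in replicate 1 (2.76) and nothing else. Of the genome windows 54.9% had no target in both lists, as did SFTPA1, SCGB1A1 and NAPSA. The lack of called marks within 2 kb of these given sites was thus shared with most of the genome in these lists. For NAPSA this does not cover its upstream start in the RefSeq table, 3663 bp from the downstream one. H3K4me3 and H3K27ac shared by both lists began 2614 and 2812 bp upstream of the given NAPSA site. Narrow peak lists can miss broad marks, and the lists give no depth, so an absent peak does not show an absent mark.

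TP63 (chr3, start site 189349216) is the basal and squamous cell factor, and the window is at the promoter of its longer TA isoforms; the internal promoter of the ΔN isoforms, the main form in basal cells, lies outside it. H4K5acK8ac was called at 4.40 and 2.90. Single lists held H3K27ac (1.94, replicate 1), H4K5ac (6.14, replicate 1), H4K8ac (2.51, replicate 2), H3K4me1 (2.32, replicate 2) and H3K9me3 (2.45, replicate 1). The summits of all 7 peaks lay between 87 and 494 bp upstream of the start. TP63 thus had a small cluster of weak peaks with an H4 mark in both lists, and neither H3K4me3 nor H3K27me3.

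Counts by target are given with the share of genome windows called in the same way. H3K4me1 was called at 5 genes (12% of genome windows), H3K4me3 at 4 (3.79%), H4K5acK8ac at 4 (6.42%), and H3K27ac (7.63%) and H4K5ac (7.89%) at 3 each. H4K12ac was called at 2 (5.84%), H4K8ac at 1 (8.00%), H3K27me3 at 1 (14.2%), and BRD2 (2.08%), H3K36me3 (11.6%) and H3K9me3 (14.9%) at none. H4K8ac had a peak in 1 list only at 5 genes, 4 of them in replicate 1 (FOXA1, SFTPB, SFTPC and SCGB1A1) and TP63 in replicate 2, and the H4K8ac lists held 224726 and 116852 peaks. H3K9me3 was found in 1 list only at SFTPB and TP63. The replicate lists of H3K4me3, H4K12ac, H3K36me3 and H3K27me3 gave the same call at all 10 genes.

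Just outside the window, H3K4me3 began 2589 bp from the SFTPC site, at 594 and 568, on the higher-coordinate side towards BMP1, the next gene in the RefSeq table, and H3K27ac began there at 2943 bp. At NAPSA the nearest H3K4me3 began 2614 bp upstream, at 575 and 550, with H3K27ac at 94 and 224 from 2812 bp and both lists of BRD2 within the same stretch. The RefSeq table lists an upstream NAPSA start 3663 bp from the downstream one, and NR1H2 is the next gene on that side. Whether the NAPSA marks belong to its own upstream start or to other transcription there cannot be told apart from these lists. With 5 kb on each side both genes would be counted as active. Just inside the window, the farthest shared mark was the H3K4me1 of SFTPC at 1663 bp.

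Beyond the start sites the genes lay in unlike surroundings. SFTPB, SFTPC and NAPSA, without a deciding mark at their starts, lay among acetylated chromatin: within 100 kb H3K27ac covered 28.7 and 21.6 kb around SFTPB, 27.6 and 24.6 kb around SFTPC, and 43.4 and 34 kb around NAPSA, against genome medians of 0.886 and 1.83 kb. H3K36me3 covered 47.2 kb in both lists around SFTPB. H3K4me3 around NAPSA, 22.7 and 22.4 kb, exceeded 99.1% of windows in both lists. It was also high around SFTPB, at 12.6 and 12.9 kb (96.3% and 96.5%), and SFTPC, at 15 and 14.9 kb (97.5% and 97.4%). Around NKX2-1, FOXA1 and SOX2 it covered between 5.05 and 7.67 kb. SFTPA1 had neither H3K4me3 nor H3K27ac within 100 kb. H3K27me3 covered 11.5 and 15.2 kb around SFTPA1, more than in 78.1% and 79.6% of windows, with the nearest shared bases 7.49 kb upstream at 4.68 and 5.35. Among the active genes H3K27me3 covered 9.66 and 7.59 kb around FOXA1 (75.2% and 68.5%) and 8.5 and 8.25 kb around NKX2-1 (73.1% and 69.7%). Around SOX2 it covered 0.355 and 0.426 kb. NAPSA and TP63 had no H3K27me3 peak within 100 kb. SCGB1A1 had no H3K9me3 within 100 kb, and its nearest H4K5acK8ac and H4K5ac lay 5.35 and 5.42 kb away at 18.1 and 19, and 16.1 and 18.8. The 3 active genes lay above the genome medians of H3K27ac but below SFTPB, SFTPC and NAPSA: NKX2-1 had 3.42 and 6.88 kb (more than 66.5% and 72.8% of windows), FOXA1 0.978 and 2.52 kb (50.7% and 54.8%), and SOX2 2.69 and 3.96 kb (62.8% and 62.5%). TP63 had 14.6 and 35.1 kb of H3K27ac without any H3K4me3. It had 11.4 and 20.4 kb of H3K9me3, against genome medians of 4.12 and 5.87 kb (more than 82.2% and 88.2% of windows).

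**Figure D5:**
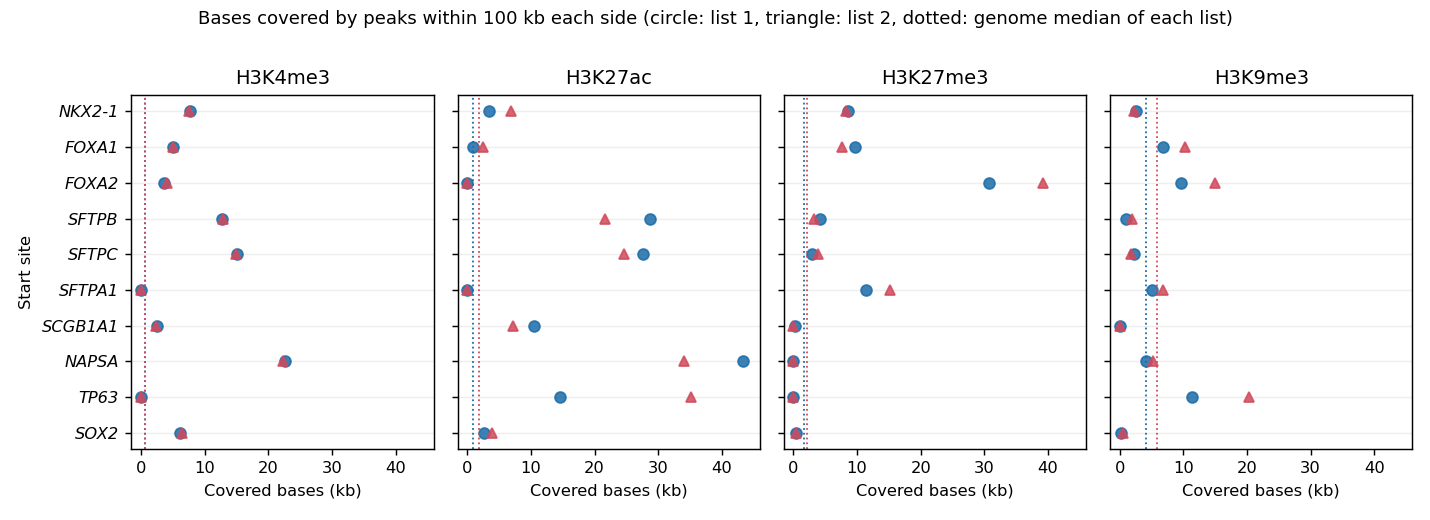
Bases covered by peaks within 100 kb on each side of each start site (horizontal axis, kb) for H3K4me3, H3K27ac, H3K27me3 and H3K9me3; circles are list 1, triangles list 2 and dotted lines the median of all genome windows of that length. FOXA2 stands farthest right for H3K27me3, at 30.7 and 39.3 kb, and NAPSA for H3K4me3, while SFTPA1 is at 0 for H3K4me3 and H3K27ac.

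With 2 lists per target and no group contrast, no test between libraries was made: 2 lists against 2 cannot give an exact two-sided p below 0.333. The 2 values printed for a mark at a start site belong to the strongest peak of the window in each list. These peaks need not share bases, so the 2 values do not measure replicate spread at 1 place. At NKX2-1 the H3K4me1 summit was 826 bp downstream of the start in replicate 1 (5.14) and 1620 bp upstream in replicate 2 (37.3). The labels do not say whether replicate libraries came from separate cultures.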

How the data were processed

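Peaks were read from 22 deposited narrowPeak lists of 10 columns without a header, 2 for each of 11 targets, taken as deposited. Per the submitters' processing notes BWA, MACS2 and hg19 were used; versions, settings, the control and any filter are not given in the sources used here. The deposited fold enrichment is a ratio to local background, and the deposited −log10 p and −log10 q are the caller's own for each peak. The deposited score and the summit offset, another deposited number in bp, are also the caller's; the offset was used for summits and the score was not used. Lists held between 21580 and 277462 peaks, with −log10 p of 2 or more, and give no reads, so depth is unknown. Groups and replicate numbers follow the titles; for the second H3K9me3 library the description disagrees.

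The 10 genes, their start sites, the rules and the settings were chosen with earlier results of these data known. All 10 genes are named in the text. Coordinates are 1-based in hg19, except promoter sequences, which are RefSeq's for GRCh38.p14; the RefSeq gene table served for names and neighbours. Other lineage genes were not analysed here, since no annotation in hg19 was used. Python 3.11.15 was used with numpy 2.4.6, pandas 2.3.3 and, for plots, matplotlib 3.10.9, and the overlap counts were tested on simulated windows with known answers. Backgrounds were 773151 windows of 4001 bp along the genome and 21173 on H3K4me3 summits of replicate 1. Alternatives changed the peak threshold, the window and the replicate rule. No test was run, since peaks of 1 list are not independent samples.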

Additional observations from a re-analysis of the deposited data

How the results depend on the processing

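Calls depended on how strong, how near and how repeated a peak had to be. With peaks at a −log10 q of at least 5, FOXA2 and SOX2 lost their states (0 bivalent genes), and H4K5acK8ac was called at 2 genes, H4K5ac at 1, H4K12ac at 1, H3K4me1 at 2 and H3K27me3 at 0. With the 20000 strongest peaks of each list, which removes most of every list but that of H3K4me3, there were 0 active and 0 bivalent genes and 10 without a deciding mark; H3K27ac, H4K5acK8ac, H4K8ac, H3K4me1 and H3K27me3 were called at 0 genes and H4K5ac and H4K12ac at 1. With 5 kb on each side SFTPC and NAPSA became active and SFTPA1 silenced (5 active, 1 silenced, 3 without a deciding mark), with H3K27ac at 7 genes, H4K5ac at 5, H4K8ac at 4, H4K12ac at 5, BRD2 at 1, H3K36me3 at 1, H3K27me3 at 2 and H3K9me3 at 1. The silenced call of SFTPA1 rested on peaks without a base in common. Its nearest bases covered in both lists lay 7.49 kb away for H3K27me3 and 10.9 kb away for H3K9me3. A peak in either list made SFTPB and TP63 silenced by H3K9me3 (2 silenced), with H3K27ac at 5, H4K5ac at 5, H4K8ac at 6, BRD2 at 1 and H3K9me3 at 2. Both SFTPB and TP63 then also held H3K27ac, H4K5ac and H4K8ac, which do not enter the rule for silenced. With q at most 0.05 H4K12ac was at 1 gene, without FOXA1, and H4K5ac at 2, without SFTPB, which then had 0 targets called; H4K12ac was also at 1 with 1 kb on each side. Leaving out 1 replicate gave 1 silenced gene each time (SFTPB without replicate 1, TP63 without replicate 2), H3K27ac at 3 to 5 genes, H4K8ac at 2 to 5, BRD2 at 0 to 1 and H3K9me3 at 1 either way. Read as a replicate block, with the state taken within each replicate number and kept where both numbers gave it, 3 genes were active, 1 bivalent, 0 silenced and 4 without a deciding mark; SFTPB and TP63 differed between the numbers, which share only a number. With H4K5acK8ac in place of H3K27ac, chosen after seeing the data, the counts of states were as first given; with a base covered by both bivalent marks, a setting run for bivalent genes only, their number was 1. Of 11 settings NKX2-1 and FOXA1 kept the active state in 10 and SCGB1A1 its state in 11; the cause of the other changes was not tested. Depth is unknown, so weak peaks present in 1 list cannot be told from differences in depth.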

Other observations

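Acetylated regions around the starts, the starts themselves included, were listed with a rule chosen after the values were seen. The rule took bases with H3K27ac in both lists at a −log10 q of at least 5 within 100 kb. TP63, whose start had no H3K4me3, had 6 such regions, all without H3K4me3, all with H4K5acK8ac in both lists and 4 with H3K4me1 in both. The 3 strongest lay 66.8 kb upstream (chr3:189281374-189283513, H3K27ac at 47 and 213), 43.4 kb upstream (chr3:189302452-189309196, 87.2 and 193) and 80 kb downstream (chr3:189427187-189431330, 86.3 and 221). The region 43.4 kb upstream also held a BRD2 peak in each list, at 0.575 and 1.65 and so with a q above 0.05 in replicate 1. These BRD2 peaks had no base in common, since the nearest base with BRD2 in both lists lay 757 kb downstream of the TP63 start. H3K9me3 also had a peak in each list in this region, at 2.75 and 3.13. A mark in both lists of a region need not cover the same bases.

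The active factors had fewer such regions than SFTPB, SFTPC and NAPSA. How many such regions other windows of the genome hold was not counted. NKX2-1 had 2, of which 1 was its start and the other lay 62.4 kb upstream (chr14:37049901-37052625) with H3K4me3 and BRD2 in both lists and H3K27ac at 70.5 and 111, stronger than at the start itself in both lists. FOXA1 had 1, at its start. SOX2 had 1, lying 70.4 kb downstream (chr3:181499237-181500988, 20.3 and 24.9) with H3K4me1 and without H3K4me3, and FOXA2 and SFTPA1 had 0. The start of SOX2 was not listed, since its H3K27ac was at 4.76 in replicate 1, below the limit of 5. NAPSA had 12, SFTPB 10, SFTPC 9 and SCGB1A1 4, of which 3, 5, 3 and 2 were without H3K4me3. Which gene any of these regions acts on was not tested.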
